A study of Mus musculus with 16 samples.

Results

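The nuclear receptors named by the Nr nomenclature (Nr, a digit, a letter, a digit) were followed in mouse embryonic stem cells (mESCs) and in 7 sorted populations derived from them. The family is described without Nr0b1. Its genes were taken by symbol, with earlier results of these data known. Each was read from its probe set of highest mean that names no other gene. In all, 22 members were named on the array, of 19938 genes with such a probe set, and each had 1 probe set. Of these, 21 were among the 32000 probe sets of highest mean that were fitted, which name 18716 genes. The exception was Nr1h5, a sterol receptor in mice, whose values lay between 4.67 and 4.93 on every array. RefSeq holds 24 symbols that fit the rule, and Nr1h2 and Nr2e3 were not analysed here.

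The arrays were of the type Affymetrix Mouse Gene ST 1.0, and every value below is the log2 of a robust multichip average (RMA) signal, with 2 biological replicates in each of 8 groups. All cells carried 2 heterozygous knock-in reporters, T GFP/+ and Foxa2 tagRFP/+, in a single mESC line, which the labels give as E14.1 and the study's methods as G4. The ES group was the undifferentiated line, unsorted and grown with LIF on fibroblast feeders. For endoderm, cells received 12 ng/ml of activin A on Wnt3a-expressing feeder cells, and Foxa2-positive, T-negative cells were sorted by the surface protein CD24 at days 2 and 4 into definitive endoderm progenitors (DEP, F+CD24low) and definitive endoderm (DE, F+CD24high). For mesoderm they received Bmp4 at 7.5 ng/ml with activin A at 3 ng/ml, and T-positive, Foxa2-negative cells were sorted into mesoderm progenitors (MP, T+CD24low, days 2 and 4) and mesoderm (MES, T+CD24neg, day 4). The labels give the stage of both Foxa2-positive gates as definitive endoderm, and the names of the populations are those of the study. Lineage and medium cannot be told apart, and DE and MES also differ in the CD24 gate.

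Nuclear receptors are transcription factors with a DNA-binding zinc finger domain and a ligand-binding pocket. Some bind hormones, sterols, bile acids or foreign compounds, and others are orphans whose activity is set mainly by their amount, by modification or by partner proteins. Most recognise the core sequence AGGTCA, alone or repeated. In pluripotent cells Nr5a2 is known to bind the regulatory region of Pou5f1, and Nr6a1 to repress Pou5f1 as cells differentiate. In liver and gut, which form from the definitive endoderm, several members control sterol, bile acid and drug metabolism.

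DE and MES at day 4 differed in the markers of their names. Of 12 definitive endoderm markers, 11 were higher in DE than in MES at day 4, and of 12 mesoderm markers 11 were lower. The progenitors differed in fewer: 5 of the 12 endoderm markers were higher in DEP than in MP, and 7 of the 12 mesoderm markers were lower. Foxa2 itself was used for sorting. Array medians lay between 7.42 and 7.49, and replicates correlated with r of 0.989 to 0.995 across probe sets. The ES arrays stood apart in fibroblast markers, whose mean over 23 genes was 9.99 and 9.71 there and 7.38 to 7.83 on the 14 sorted arrays. Replicate 2 of DE at day 2 differed from the other sorted arrays in 2 collagen genes: Col1a1 was 10.40 there, against 8.08 to 8.63, and Col1a2 was 9.22, against 7.88 to 8.38. The fibroblast markers Postn, at 5.38, and Thy1, at 7.65, lay there within the values of the other sorted arrays.

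The spread of the family over the groups was near that of all genes. A call required a limma p below 0.05 after Benjamini-Hochberg adjustment over the 32000 probe sets, together with a log2 fold change beyond 1 in either direction, and 4 of the 21 members fitted were called in at least 1 of 9 comparisons between 2 groups: Nr5a2, Nr1d1, Nr4a1 and Nr2f6. Of all genes fitted, 14.2% were called in at least 1 of the same comparisons. The range of the 8 group means had a median of 0.42 over the 21 members, beside 0.48 over all 18716 genes. It exceeded 1 for 5 members (23.8%) and for 20.2% of all genes, a share near the background. The 5 were Nr5a2 with 3.71, Nr1d1 with 1.78, Nr4a1 with 1.46, Nr1d2 with 1.35 and Nr2f6 with 1.06. For Nr1d1, Nr4a1 and Nr1d2 this range lies between ES and DE at day 4. The 9 comparisons did not include DE or MES against ES, so no call was made for those differences. For 11 members (52.4%) the range was under 0.5, as for 52.1% of all genes. No level is set against that of another gene, since probe sets differ in their response.

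**Figure D1:**
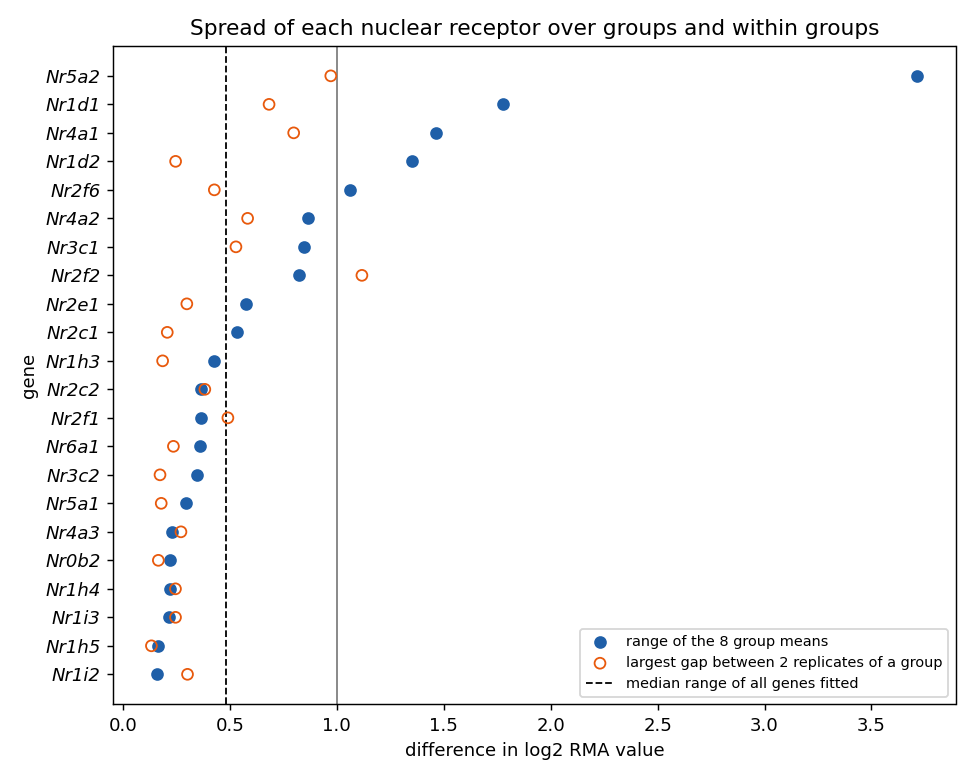
Spread of each of the 22 nuclear receptors. Filled points give the range of the 8 group means, open points the largest gap between the 2 replicates of a group, both in log2 RMA units; the dashed line is the median range of all genes fitted (0.48) and the solid line a range of 1. Nr5a2, Nr1d1, Nr4a1, Nr1d2 and Nr2f6 lie above 1, and for 7 of the 22 members, among them Nr2f2 (1.12 against 0.82), the largest replicate gap exceeds the range over groups.

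Nr5a2 (also LRH-1), an orphan receptor that activates Pou5f1 in pluripotent cells and bile acid genes in liver, had the largest range of the family. It was 9.52 and 10.49 in ES cells. In DEP it was 6.40 and 6.38 at day 2 and 6.18 and 6.40 at day 4, and in DE 6.53 and 6.58 at day 2 and 6.53 and 6.25 at day 4. In MP it was 6.58 and 6.80 at day 2 and 7.20 and 7.46 at day 4, and in MES 7.07 and 6.97. Both ES arrays lay above every sorted array, and the ES replicates themselves differed by 0.97.

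Nr5a2 fell by 3.66 (SE 0.21, adjusted p = 3.04e-07) from ES to DEP, taken as the mean of both days, and fell by 2.99 (SE 0.21, adjusted p = 1.51e-06) from ES to MP. With 1 array left out at a time the first difference lay between -4.15 and -3.18 and the second between -3.48 and -2.51, and both stayed called. In the comparison of DEP with ES, 2 of the 21 members were called, beside 5.13% of all genes, and in that of MP with ES 1 member, beside 5.15%. Both comparisons use the same 2 ES arrays. The ES cells were not sorted: of 21 fibroblast markers tested, 14 were lower in DEP than in ES and 13 in MP than in ES, while of 12 naive pluripotency markers 12 and 11 were lower. The part of feeder RNA in the members' differences was not tested. In such bulk samples, fewer cells of a type and less RNA per cell cannot be told apart.

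Between the sorted populations Nr5a2 was lower on each DEP array than on every MP array at days 2 and 4. The difference was -0.67 (SE 0.17, adjusted p = 0.028) as a mean of both days, short of the fold threshold. At day 4 alone it was -1.04 (adjusted p = 0.0173), which passes it, and at day 2 alone -0.30 (adjusted p = 0.782); the change of the difference with the day was not called. No member was called in the comparison of DEP with MP, where 1.98% of all genes were; 7 members had an unadjusted limma p below 0.05, as did 23.7% of all genes. From DEP to DE the Nr5a2 difference was 0.13 (SE 0.17), with the values of the 2 populations overlapping.

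The region around 1 of the RefSeq starts of Nr5a2 is shown because the gene has the largest difference of the family. It is taken from RefSeq (GRCm38.p6) and runs from 250 bases before to 50 after the start, on the minus strand at chr1:136960399-136960698, 5′ to 3′. Capitals mark AGGTCA, at position -64 from the start. The other Nr5a2 window, at chr1:136953581-136953880, held no AGGTCA and is not shown.

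Nr5a2: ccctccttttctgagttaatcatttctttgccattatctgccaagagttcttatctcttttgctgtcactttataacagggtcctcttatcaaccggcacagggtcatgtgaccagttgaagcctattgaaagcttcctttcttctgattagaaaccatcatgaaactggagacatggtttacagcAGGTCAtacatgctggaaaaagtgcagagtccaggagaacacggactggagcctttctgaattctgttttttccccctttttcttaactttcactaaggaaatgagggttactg

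This core sequence, read on both strands, was in 16.3% of 32851 RefSeq windows of this kind and in 4 of the 24 windows of the 20 members that have one. The longer form bound by Nr5a proteins, CAAGGTCA, and that bound by Nr4a proteins, AAAGGTCA, both of which contain the core, were in 0 of the 24, beside 1.56% and 1.51% of all windows. Nr5a1 (SF-1), the other member of the subfamily and a regulator of steroid hormone synthesis, stayed between 7.05 and 7.41 on all 16 arrays.

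**Figure D2:**
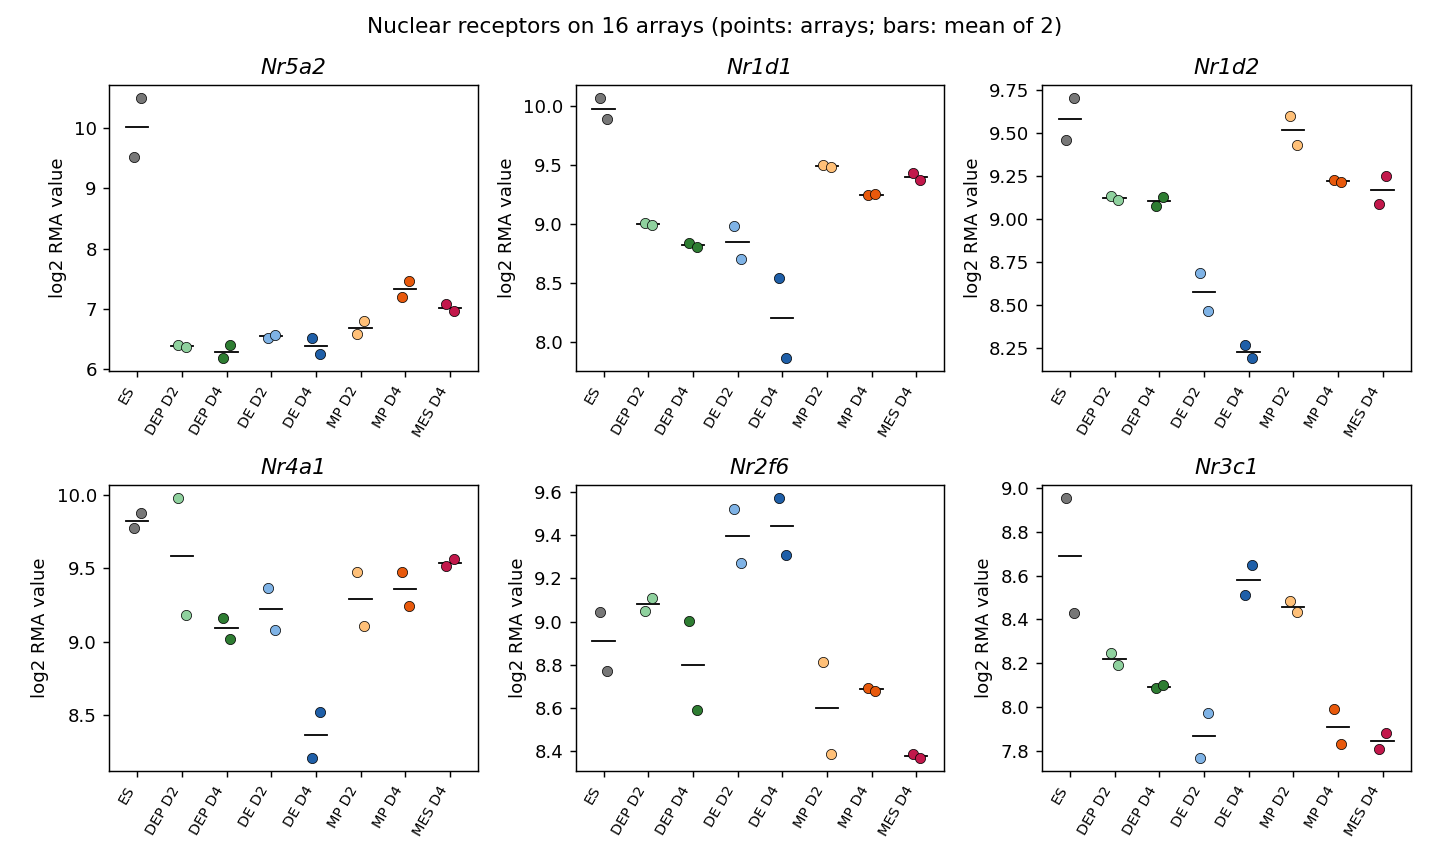
Log2 RMA values of 6 nuclear receptors on each of the 16 arrays, with a separate y axis for each gene that does not start at 0. Points are arrays, bars the means of 2 replicates, and D2 and D4 the days. Nr5a2 is high on the ES arrays, Nr1d1, Nr1d2 and Nr4a1 are lowest in DE at day 4, Nr2f6 is highest in DE, and Nr3c1 lies higher at day 4 than at day 2 in DE and lower in MP.

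Nr1d1 and Nr1d2 (Rev-erb alpha and beta) are haem-binding repressors of the circadian clock. Nr1d1 was lowest in DE at day 4, with 8.54 and 7.86, and highest in ES cells, with 10.07 and 9.89. It was 8.99 and 8.70 in DE at day 2, 9.01 and 8.99 in DEP at day 2 and 8.84 and 8.81 in DEP at day 4. On the mesoderm side it was 9.50 and 9.49 in MP at day 2, 9.25 and 9.25 in MP at day 4 and 9.43 and 9.38 in MES. Every Foxa2-positive array thus lay below every T-positive array. Nr1d2 was 9.46 and 9.70 in ES cells, 9.13 and 9.11 in DEP at day 2, 9.08 and 9.13 in DEP at day 4, 8.68 and 8.46 in DE at day 2 and 8.26 and 8.19 in DE at day 4. In MP it was 9.60 and 9.43 at day 2 and 9.23 and 9.21 at day 4, and in MES 9.09 and 9.25. The 4 DE arrays lay below all others.

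From MES to DE at day 4, Nr1d1 fell by 1.20 (SE 0.17, adjusted p = 0.000389). The value rests partly on replicate 2 of DE at day 4: without it the difference was -0.86 and the call was lost. Nr1d2 differed by -0.94 (SE 0.11, adjusted p = 7.38e-05), inside the fold threshold, and was called only without replicate 1 of MES, at -1.02. From ES to DEP, Nr1d1 fell by 1.07 (SE 0.15, adjusted p = 0.000384), and it was not called without replicate 1 of ES or at day 2 alone, both at -0.98. The same difference for MP was -0.61 and did not pass. From DEP to DE, the difference was -0.71 for Nr1d2 (SE 0.08, adjusted p = 4.11e-05) and -0.39 for Nr1d1, and 0 of the 21 members were called there, beside 4.67% of all genes; 6 had an unadjusted limma p below 0.05, as did 37.7% of all genes. In DE the Nr1d1 difference of day 4 from day 2 was -0.64 and was not called.

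The start regions of both genes are shown because their levels were lowest in the same population. They are RefSeq windows (GRCm38.p6) on the minus strand, at chr11:98775328-98775627 for Nr1d1 and at chr14:18239057-18239356 for Nr1d2, with AGGTCA in capitals, at position -77 from the start of Nr1d2.

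Nr1d1: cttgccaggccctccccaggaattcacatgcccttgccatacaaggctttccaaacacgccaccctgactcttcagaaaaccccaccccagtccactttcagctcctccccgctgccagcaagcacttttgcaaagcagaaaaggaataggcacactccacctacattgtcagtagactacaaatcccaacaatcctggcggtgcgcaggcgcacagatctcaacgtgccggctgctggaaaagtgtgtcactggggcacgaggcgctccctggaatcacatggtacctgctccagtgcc

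Nr1d2: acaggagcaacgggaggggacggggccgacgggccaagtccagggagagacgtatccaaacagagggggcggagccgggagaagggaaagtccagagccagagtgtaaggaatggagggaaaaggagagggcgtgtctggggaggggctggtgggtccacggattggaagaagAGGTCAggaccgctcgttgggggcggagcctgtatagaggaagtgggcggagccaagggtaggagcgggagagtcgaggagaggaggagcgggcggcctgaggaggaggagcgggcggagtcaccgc

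Neither window held the E-box CACGTG that the clock activators bind, found in 7.15% of all windows, nor the D-box TTATGNAA, found in 3.39%. Other forms of these sites, and sequence outside the windows, were not searched. Among the members an E-box was in the windows of Nr0b2 and Nr1i3.

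Of 16 other clock genes tested, 4 were called between DE and MES at day 4, beside 7.86% of all genes. Bhlhe41, a repressor of the clock, rose by 2.90 (SE 0.19) from MES to DE and Per2, another repressor, by 1.38 (SE 0.12), whereas the related repressor Bhlhe40 was lower, at -2.43 (SE 0.33), and Clock, an activator, at -1.73 (SE 0.09). The median of the list was 0.00, beside 0.02 over all genes. From ES to DEP, 0 of the 16 passed, and 5 had an adjusted limma p below 0.05 without the fold. Markers of visceral endoderm, an extraembryonic tissue that also expresses Foxa2, moved with the DE comparison. Their mean over 11 genes was 8.64 and 8.60 in DE at day 4 and 7.01 and 6.87 in MES. In DE at day 2 it was 7.09 and 7.79. Of the 11 markers, 4 were called higher in DE than in MES at day 4. Their part in the members' differences was not tested.

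Nr4a1 (Nur77), an orphan receptor whose transcript is induced within minutes by many stimuli, was also lowest in DE at day 4. It was 8.21 and 8.52 there and 9.36 and 9.08 in DE at day 2. In ES cells it was 9.77 and 9.87. In DEP it was 9.98 and 9.18 at day 2 and 9.16 and 9.02 at day 4, in MP 9.47 and 9.11 at day 2 and 9.48 and 9.24 at day 4, and in MES 9.51 and 9.56. The DE arrays of day 4 lay below all 14 others, which overlapped widely. From MES to DE at day 4, Nr4a1 fell by 1.17 (SE 0.22, adjusted p = 0.00267), and the difference lay between -1.33 and -1.02 with 1 array left out, always called. With DE taken as the mean of both days it was -0.75 and not called, and Nr1d1 was then -0.88. Within DE the difference of day 4 from day 2 was -0.86 (SE 0.22, adjusted p = 0.0446), inside the fold threshold. There 0 members were called, beside 1.87% of all genes, with 5 members and 23.4% of all genes at an unadjusted limma p below 0.05.

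The other members of this subfamily were not called. Nr4a2 (Nurr1) was 9.03 and 9.21 in DE at day 4, its highest group, and its difference from MES was 0.24, with a 95% interval of -0.17 to 0.65. Nr4a3 (Nor1) lay between 5.45 and 5.85 on all arrays. Of 25 other immediate early genes tested, 3 were higher in DE than in MES at day 4 and 2 were lower. Btg2, which restrains proliferation, was higher by 1.72 (SE 0.27) and the AP-1 subunit Jund by 1.26 (SE 0.15), while Myc, a driver of growth, was lower, at -2.45 (SE 0.20), and the stress-induced factor Atf3 at -1.59 (SE 0.20). The list had a median of -0.16, and 7.86% of all genes were called in that comparison. In the same list, 4 genes were higher and 3 lower in DEP than in ES, where 5.13% of all genes were called. Fos, an AP-1 subunit, was at 2.16 (SE 0.24) and Fosb at 2.06 (SE 0.21), while Nr4a1 was -0.49 and not called.

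Nr2f6 (Ear2), an orphan receptor of the COUP-TF group, was the single member called higher in DE than in MES. It was 9.52 and 9.27 in DE at day 2 and 9.57 and 9.31 in DE at day 4, above all other arrays. In MES it was 8.39 and 8.37. In DEP it was 9.05 and 9.11 at day 2 and 9.00 and 8.59 at day 4, in MP 8.81 and 8.39 at day 2 and 8.69 and 8.68 at day 4, and in ES cells 9.05 and 8.77. From MES to DE at day 4 it rose by 1.06 (SE 0.17, adjusted p = 0.00085). The call was lost without replicate 1 of DE at day 4, at 0.93, and held with DE as the mean of both days, at 1.04. From DEP to DE the difference was 0.48, below the fold threshold. In the comparison of DE with MES, 3 of the 21 members (14.3%) were called, 1 higher and 2 lower, beside 7.86% of all genes, and 6 had an adjusted p below 0.05, beside 27.0% of all genes.

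Nr2f2 (COUP-TFII), which is known for its role in veins and mesenchyme, was not called in any comparison. In DE at day 2 its replicates were 6.63 and 7.75, the widest gap of any member, and the higher value came from the array on which Col1a1 was 10.40. On that array 3 of 23 fibroblast markers, Col1a1, Col1a2 and Lox, were more than 1 above the other replicate, and Nr2f1 (COUP-TFI) was 6.69, beside 6.05 to 6.41 on the other 15 arrays. The part of fibroblast cells or transcripts in the values was not tested. Nr2f2 was 7.23 and 7.24 in DE at day 4, 7.39 and 7.18 in ES cells, 6.77, 6.72, 6.50 and 6.67 on the DEP arrays, and 6.41 to 6.76 on the MP and MES arrays. Its difference between DE and DEP was 0.55 (adjusted p = 0.052) and, without the array named, 0.27 (adjusted p = 0.0406). The day 4 minus day 2 difference in DE was 0.04 with that array and 0.60 (adjusted p = 0.0139) without it. Between DE and MES the difference was 0.63, with a 95% interval of 0.07 to 1.19 and an adjusted p of 0.115. From ES to MP it was -0.70 (SE 0.22, adjusted p = 0.0428), in a comparison in which fibroblast markers also fell.

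The testicular receptors and Nr2e1 were not called in any comparison between 2 groups. The range of their group means was 0.53 for Nr2c1, 0.37 for Nr2c2 and 0.58 for Nr2e1, beside a median of 0.48 over all genes. Nr2c1 (TR2) was lowest in ES cells, with 9.05 and 9.13, and its difference from ES was 0.37 in MP (adjusted p = 0.0147). Nr2c2 (TR4) lay between 9.74 and 10.44. Nr2e1 (Tlx), a regulator of neural stem cells, was 0.45 higher in DE than in MES at day 4 (SE 0.12, adjusted p = 0.0219), inside the fold threshold.

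**Figure D3:**
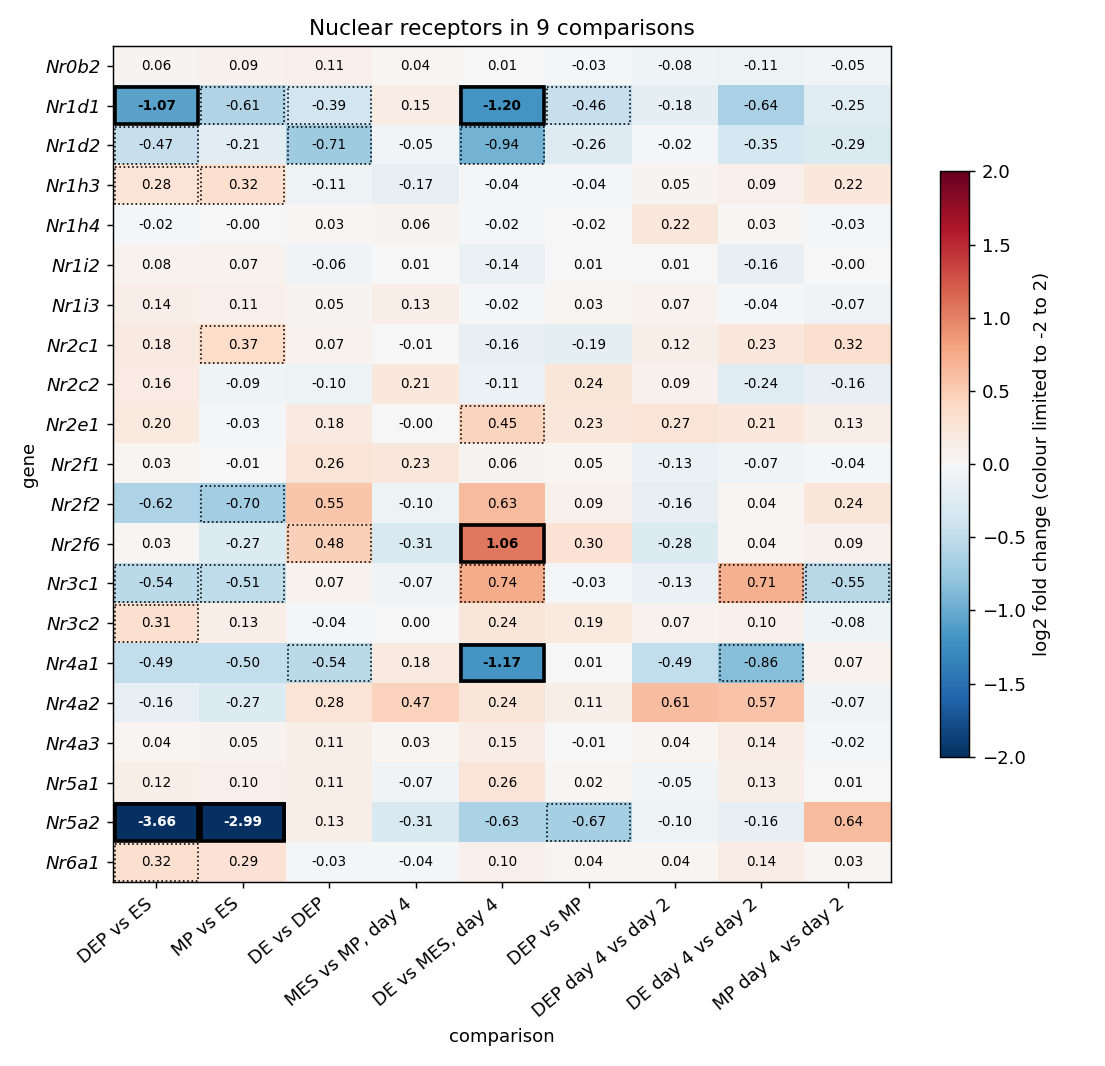
Log2 fold change of the 21 fitted members (rows) in 9 comparisons (columns); colours are limited to -2 and 2 and numbers give the value. Solid frames mark the 6 calls (log2 fold change beyond 1 in either direction, adjusted p below 0.05) and dotted frames an adjusted p below 0.05 alone. Solid frames lie in 3 of the 9 columns: DEP vs ES, MP vs ES and DE vs MES.

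Nr3c1, the glucocorticoid receptor, was not called between any pair of groups, but its change with the day was called different between DE and MP. In DE it was 7.77 and 7.97 at day 2 and 8.51 and 8.65 at day 4. In MP it was 8.48 and 8.43 at day 2 and 7.99 and 7.83 at day 4. The days did not overlap in either population. The difference of day 4 from day 2 was 0.71 in DE (SE 0.15, adjusted p = 0.0145) and -0.55 in MP (SE 0.15, adjusted p = 0.048), both inside the fold threshold. The difference between them, a contrast added after the values were seen, was 1.26 (SE 0.21, adjusted p = 0.00458), and Nr3c1 was the single member called there, beside 3.24% of all genes. The contrast takes DE and MP across both lineage and CD24 gate. In MP, 0 members were called between the days, beside 1.74% of all genes, and 5 had an unadjusted limma p below 0.05, as did 20.5% of all genes.

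On the other arrays Nr3c1 was 8.96 and 8.43 in ES cells, 8.25, 8.19, 8.08 and 8.10 in DEP and 7.81 and 7.88 in MES. Its difference from ES was -0.54 in DEP (adjusted p = 0.0104) and -0.51 in MP (adjusted p = 0.0138), and from MES to DE 0.74 (SE 0.15, adjusted p = 0.00344). The mineralocorticoid receptor Nr3c2 stayed between 5.69 and 6.17 on all arrays. Of 14 glucocorticoid response genes, 3 were higher in DE than in MES at day 4: the metallothioneins Mt1, by 1.17 (SE 0.19), and Mt2, by 1.12 (SE 0.20), and the kinase Sgk1, by 1.06 (SE 0.12). The list's median there was 0.23, and 7.86% of all genes were called. From day 2 to day 4 in MP, 2 fell, the transcription factor Klf9 at -1.26 (SE 0.20) and Sgk1 at -1.07 (SE 0.12), and none of the 14 passed between the days of DE, with 2 at an adjusted limma p below 0.05. For the added contrast 2 of the 14 were called, Klf9 at 1.61 (SE 0.28) and Sgk1 at 1.12 (SE 0.17). The list's median for that contrast was below 0, at -0.098, beside -0.004 over all genes.

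None of the liganded metabolic receptors was called. The bile acid receptor Nr1h4 (FXR) lay between 5.49 and 5.86 on all 16 arrays, its target and partner Nr0b2 (SHP) between 5.79 and 6.05, and the xenobiotic receptors Nr1i2 (PXR) and Nr1i3 (CAR) between 6.54 and 6.92 and between 5.98 and 6.42. For Nr1h4, Nr1i2 and Nr1i3 the largest gap between 2 replicates exceeded the range over the 8 groups. The values hold no detection call, so that absence cannot be read from them. The oxysterol receptor Nr1h3 (LXR alpha) was 7.06 and 7.18 in ES cells and 7.15 to 7.60 on the sorted arrays, with a difference from ES of 0.28 in DEP (adjusted p = 0.0374) and 0.32 in MP (adjusted p = 0.02). Nr6a1 (GCNF) was 10.86 and 10.64 in ES cells and 10.93 to 11.20 elsewhere, and its difference from ES was 0.32 in DEP, inside the fold threshold.

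Genes tied to these receptors were counted in the same way, and the counts are read beside the shares of all genes called, 7.86% in DE compared with MES, 5.13% in DEP compared with ES and 4.67% in DE compared with DEP. Of 15 bile acid genes tested, 1 was called between DE and MES, Fgf15, a gut hormone that lowers bile acid synthesis in adults, at -2.90 (SE 0.11). Of 14 sterol response genes, a list that holds Nr1h3 itself, 1 was higher in DE than in MES, the ubiquitin ligase Mylip by 1.57 (SE 0.20), and in DEP compared with ES 1 was higher and 3 lower, among them the cholesterol transporter Abca1 at -2.20 (SE 0.18). Of 18 coregulators, which nuclear receptors recruit to open or close chromatin, the coactivator Ncoa4 was the single call in DE compared with MES, at 1.41 (SE 0.10), and Ncoa3 the single call from ES to DEP, at -1.32 (SE 0.11), and from ES to MP, at -1.04 (SE 0.11). Of 10 general pluripotency genes, which include the Nr5a2 and Nr6a1 target Pou5f1, 4 were lower in DEP than in ES. Pou5f1 was not among these 4: it was 12.47 and 12.59 in ES cells. In DEP it was 12.69 and 12.82 at day 2 and 12.72 and 12.52 at day 4. From DEP to DE, 5 of the 10 were lower, with Pou5f1 at -3.28 (SE 0.18), where Nr5a2 was at 0.13.

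Nuclear receptors that carry other symbols are given for comparison, in a list that also holds Nr0b1, the gene left out of the family. Of 23 tested, Hnf4a, a regulator of liver and gut genes, was 3.86 (SE 0.29) higher in DE than in MES at day 4 and the retinoic acid receptor Rarb by 2.36 (SE 0.16), while Rxrg, a heterodimer partner, was lower, at -2.30 (SE 0.12), and Rarg at -1.54 (SE 0.17); in all 3 rose and 2 fell, and the list's median was 0.03. Hnf4a is also on the list of visceral endoderm markers. From ES to DEP, 1 of the 23 was higher, the progesterone receptor Pgr by 1.39 (SE 0.12), and 2 were lower. The 2 were Nr0b1 and Esrrb, a naive pluripotency factor. Esrrb was at -3.58 (SE 0.17), beside the -3.66 of Nr5a2. Of all genes, 7.86% were called between DE and MES and 5.13% from ES to DEP. No difference between these receptors and the members was tested.

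In the remaining comparisons the family gave no call. Between MES and MP at day 4, 0 of 21 members passed, beside 1.18% of all genes, and 1 had an unadjusted limma p below 0.05, as did 16.2% of all genes. Between the days of DEP, 0 passed, beside 0.443%, and 1 member and 9.30% of all genes had an unadjusted limma p below 0.05. The change with the day of the difference between DEP and MP called 0 members, beside 1.57% of all genes, and that between DE and DEP 0, beside 1.05%, each with 1 member at an unadjusted limma p below 0.05, beside 12.6% and 13.1% of all genes.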

How the data were processed

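Affymetrix Mouse Gene ST 1.0 arrays measured RNA of mESCs and of 7 sorted populations, with 2 arrays in each of 8 groups. The authors normalized the 16 arrays together by RMA (oligo 1.48.0, per the labels' processing notes) and deposited 1 log2 value per probe set, so that background correction and quantile normalization are already in the values, and differences of dim genes are compressed. Groups and replicate numbers were taken from the labels, and population names from the study.

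Of 35556 probe sets, the 32000 of highest mean entered a limma fit (version 3.58.1, R 4.3.3) with 8 group means without a block, as in the study's methods for the filter and thresholds. The p-values were adjusted by Benjamini-Hochberg over the 32000, and intervals are 95%. The platform annotation gave 21789 probe sets 1 symbol, 1621 several and 12146 none, and all 22 members matched RefSeq. MES was sorted at day 4 only and was compared within that day; the other populations pool days 2 and 4. Each p rests on the spread between 2 replicates, pooled over groups, and the number of arrays limits the precision.

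The members, the gene lists and the tests were chosen with earlier results of these data known. All members were to be accounted for, those called in a comparison between 2 groups with every array's value and the others by range; other lists name at most 4 called genes of largest change. The values of Nr3c1, Nr2f2 and the fibroblast genes on single arrays were described after they had been seen. Replicate numbers were not treated as paired in the fit. Over 28 pairs of groups the deviations of same-numbered arrays correlated with r between -0.20 and 0.25, and 8 exceeded 0.1. These pairs mix days and media, so they do not settle whether gates of the same day and medium were paired. Alternatives were other filters, adjusted p alone, centring, trended and robust variances, single days, a replicate block and leaving out each array. The fit was tested on simulated data.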

Additional observations from a re-analysis of the deposited data

Results flagged for a closer look

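Nr3c1 differed in its change with the day between DE and MP, by 1.26 on the log2 scale (SE 0.21, 95% interval 0.80 to 1.71, adjusted p = 0.00458 in limma), as both DE arrays were higher at day 4 than at day 2 and both MP arrays lower. The contrast was added after the values were seen, so neither its adjusted p nor its stability on the same arrays is independent support. With 1 array left out at a time it lay between 1.16 and 1.36 and stayed called. Nr3c1 was the 1 member of 21 called for it, beside 3.24% of all genes. With 2 arrays in each group, no array could be tested as standing apart from its group.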

How the results depend on the processing

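For 29 single-member results, recomputed under the alternatives that gave each a value and with both thresholds kept, 637 values kept their direction and their side of the thresholds, 6 lost the call, 2 gained it and 0 reversed. The number of members called from ES to DEP, 2, became 1 with the 16000 probe sets of highest mean, which do not hold Nr5a2, 1 at day 2 alone, 1 to 2 with 1 array left out, with 1 only without replicate 1 of ES, and 7 with the adjusted p alone. From ES to MP, 1 became 0 with 16000 probe sets and 6 with the adjusted p alone. In DE against MES, 3 became 1 with DE as the mean of both days, 2 to 4 with 1 array left out and 6 with the adjusted p alone. In DEP against MP, 0 became 1 at day 4 alone and 2 with the adjusted p alone. The adjusted p alone gave 4 for DE against DEP, 2 for the days of DE and 1 for those of MP, beside 27.5%, 8.78% and 7.56% of all genes; for ES to DEP, ES to MP and DE against MES that share was 26.8%, 26.0% and 27.0%, and for DEP against MP 11.9%. With the replicate block the counts stayed 2 from ES to DEP, 1 from ES to MP and 3 in DE against MES, and the block changed no call. A member's second probe set could not be used, since each had 1.

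With 2 arrays a group, small differences and those of members at low values, where RMA compresses them, are not resolved. The filters and the thresholds are those of the study's methods.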
